A study of Mus musculus with 12 samples.

Results

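Aminoacyl-tRNA synthetases, the enzymes that join each amino acid to its transfer RNA, were followed in whole retinas of diabetic and control mice. The 36 genes were taken by name, from a list of 20 cytosolic and 16 mitochondrial enzymes (names ending in 2), and all 36 were found among the 24570 named genes of the array. Of these, 35 were named by the array annotation (Mars as Mars1) and Dars through its gene number. The diabetic group held 6 male C57Bl6/J mice, called outbred in the labels, given streptozotocin, which destroys pancreatic beta cells, as 1 intraperitoneal dose of 160 mg/kg at 8 weeks of age and 24 to 26 g, with glucose above 15 mM 7 days later. The control group held 6 normoglycemic C57Bl6/J mice without streptozotocin, and the sources used here do not say whether they received vehicle. Both groups were analysed at 6 weeks, 1 array per animal. The labels place this 6 weeks after induction, but the design text gives the diabetic animals an age of 6 weeks, which the injection age does not allow.

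Protein synthesis needs a charged transfer RNA for every amino acid, and each synthetase selects 1 amino acid and its matching transfer RNAs. Most animals keep separate nuclear genes for the cytosolic enzyme and for the mitochondrial enzyme, which serves the small set of proteins made inside the organelle. In mammals Gars and Kars each serve both compartments, Eprs joins a glutamyl and a prolyl enzyme in 1 chain, Farsa and Farsb are the subunits of a single phenylalanyl enzyme, and several cytosolic enzymes sit in a multi-synthetase complex. When amino acids run short or unfolded protein builds up, the eIF2 kinases slow translation and the transcription factor ATF4 is made, which activates amino acid transporters, the asparagine synthetase gene Asns and many cytosolic synthetase genes. Inherited changes in several synthetase genes damage nerves, hearing or the brain in humans.

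Expression was given on a log2 scale after RMA, a method that sums the probes of a gene and gives every array the same distribution; here the median of each of the 12 arrays was 5.73. Correlations between arrays were 0.993 or higher over all genes. The retinal identity of the tissue was borne out by the rod and cone marker list, whose mean ran from 12.24 to 12.33 in diabetic and from 12.29 to 12.36 in control retinas. The mean over 13 lens crystallin genes ran from 5.68 to 7.38 in diabetic and from 5.83 to 6.45 in control retinas. It was highest in diabetic replicate 6, as was the mean of the pigment epithelium markers. Single crystallins could vary more: Cryaa ran from 6.30 to 11.73 in diabetic and from 6.92 to 10.02 in control retinas. Its values were also high in diabetic 2 (10.98) and control 4 (10.02). Past the test below were 0 of 13 crystallin genes. Of the other marker lists, 1 of 8 rod and cone genes and 1 of 5 leukocyte genes were called lower, against 1.77% of all genes. These were Arr3 (change -0.30) and Mpo (change -0.07, at a mean level of 5.53, below the array median). Their part in the results was not tested. In whole retina, fewer cells of a type and less RNA per cell cannot be told apart. The label numbers of the animals do not overlap between the groups, and the labels do not say whether the numbers mark separate cohorts, so a difference between cohorts, if there were any, and diabetes cannot be told apart. The p-values set the difference between the group means against the spread within the groups of these 12 animals.

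ATF4 acts with C/EBP proteins on a composite element, written TGATGNAA here, and promoter windows were searched for it on both strands because the cytosolic genes are known as ATF4 targets. RefSeq windows (GRCm38.p6, 250 bases before to 50 after a start site) were matched for 27 of the 36 genes, all but Cars, Hars, Hars2, Lars, Nars, Pars2, Rars, Vars and Wars. The form TGATGCAA, itself 1 case of TGATGNAA, stood in windows of 4 of 13 cytosolic genes (Aars, Iars, Tars and Yars) and of 0 of 14 mitochondrial genes. Over all genes with a window it stood in 279 of 27025 (0.895% of all 32851 windows, since a gene can have several). TGATGNAA added Gars and made 5 of 13 and 0 of 14, against 1219 of 27025 genes (3.97% of all windows). In the list of other ATF4-linked genes, TGATGNAA stood in windows of 11 of 31 genes. These genes are shown because ATF4-linked control is the background against which cytosolic and mitochondrial enzymes are set here, with Asns as the textbook case. The element is in capitals, in either orientation. It begins at position -15 from the start site in Tars, -112 and 9 in Aars, 7 in Iars, 3 in Yars, -30 in Gars and -23 in Asns, where 0 is the start base. A match is a description of letters and not a site of binding.
Tars window (chr15:11399609-11399908, - strand): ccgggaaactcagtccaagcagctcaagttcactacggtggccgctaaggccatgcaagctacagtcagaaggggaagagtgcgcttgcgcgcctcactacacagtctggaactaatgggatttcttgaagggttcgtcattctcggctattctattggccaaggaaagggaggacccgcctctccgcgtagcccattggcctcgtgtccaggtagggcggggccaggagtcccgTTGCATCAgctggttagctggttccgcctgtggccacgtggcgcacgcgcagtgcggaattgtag
Aars stretch 1 (chr8:111033710-111033757, + strand): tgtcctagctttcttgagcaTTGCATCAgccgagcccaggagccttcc
Aars stretch 2 (chr8:111033831-111033878, + strand): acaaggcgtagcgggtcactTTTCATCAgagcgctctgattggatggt
Iars stretch (chr13:49682117-49682164, + strand): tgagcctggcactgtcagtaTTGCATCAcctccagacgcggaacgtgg
Yars stretch (chr4:129189886-129189933, + strand): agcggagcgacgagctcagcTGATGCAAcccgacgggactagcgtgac
Gars stretch (chr6:55037951-55037998, + strand): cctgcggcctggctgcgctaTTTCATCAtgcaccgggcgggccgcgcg
Asns stretch (chr6:7693205-7693252, - strand): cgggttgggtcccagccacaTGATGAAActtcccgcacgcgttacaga

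Few synthetase genes passed the test between diabetic and control retinas, and their changes were small. Tars, the cytosolic threonyl enzyme, rose 1.13-fold and Hars2, the mitochondrial histidyl enzyme, rose 1.16-fold in diabetic retinas, and the other 34 genes did not pass the test (limma over all 24570 genes, adjusted p under 0.05). The 2 genes make 5.56% of the 36, where 3.24% of all genes were called (1.47% higher, 1.77% lower). That background of 797 genes itself moved with single arrays, from 325 genes without diabetic 4 to 835 without control 5. All 36 synthetases lay in the brighter part of the array, above the middle of all genes by level, where 5.13% were called. At an unadjusted p under 0.05 there were 9 synthetases, 5 higher and 4 lower, or 25% of them, against 21.0% of all genes (9.76% higher, 11.3% lower) and 27.7% of the brighter ones. The share of synthetases that differed was thus close to the background in both counts. The median change was -0.02 over the 36 genes and 0.00 over all genes, with 16 synthetases above 0 and 20 below.

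**Figure D1:**
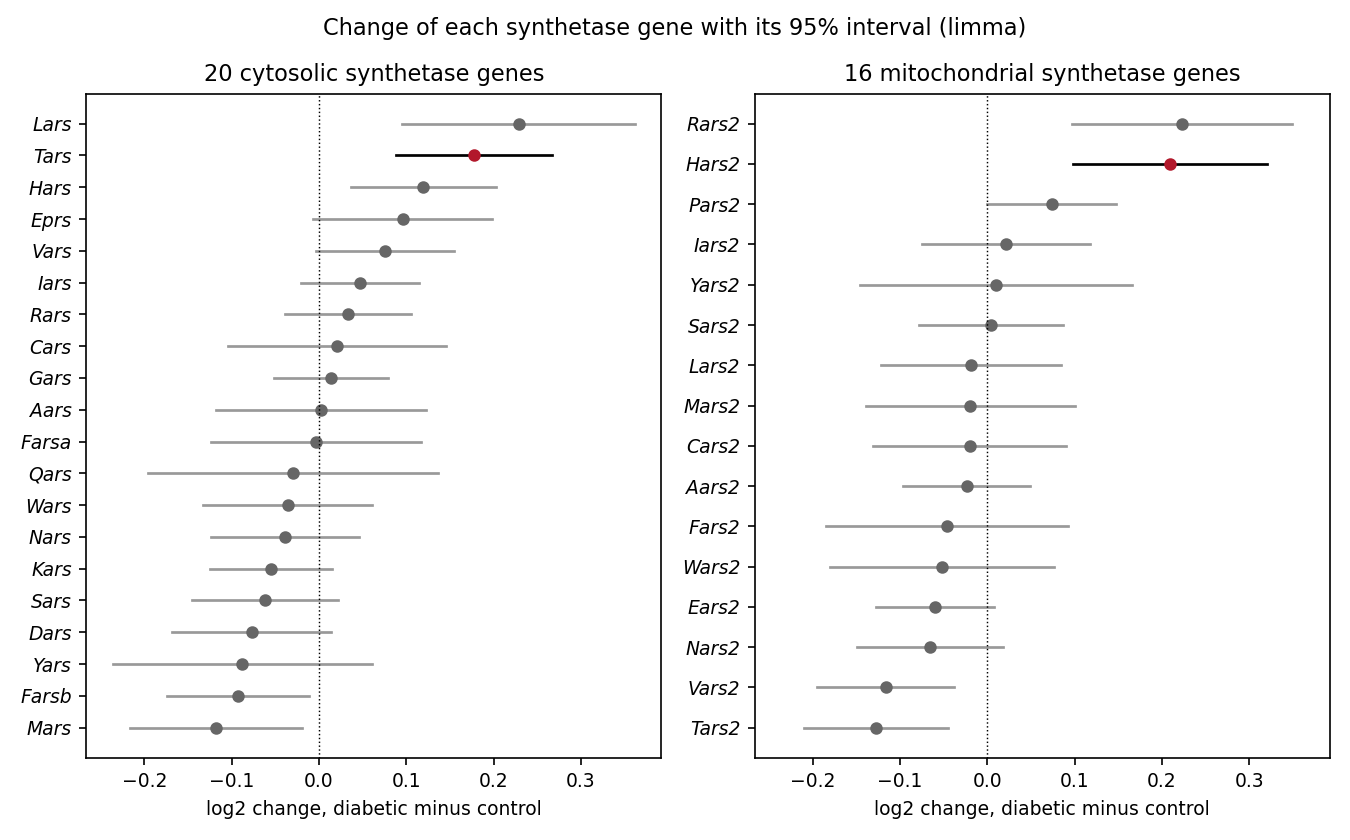
Log2 change (diabetic minus control) on the horizontal axis for the 20 cytosolic genes (left) and 16 mitochondrial genes (right), with points for the limma estimate, bars for its 95% interval, and red points with black bars for adjusted p under 0.05. Tars (0.18) and Hars2 (0.21) are the red points, and the changes of all 36 genes lie between -0.13 and 0.23.

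The intervals bound the change in array values, given the spread between the arrays of a group. They do not cover a difference between cohorts. Each is an interval for a single gene and was not widened for reading all 36 together. The 95% intervals of all 36 genes lay between -0.24 and 0.36 on the log2 scale, so that a rise of more than 1.29-fold or a fall of more than 1.18-fold lay outside each of them. For 32 of the 36 genes, 18 cytosolic and 14 mitochondrial, the whole interval lay within a 1.2-fold change in either direction. The 4 genes whose intervals went past it, all upward, were Tars, Lars, Hars2 and Rars2. The SD between animals of a group had a median of 0.08 over the 36 genes, so the intervals rest on little spread and few arrays.

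Among the cytosolic enzymes, Tars was the 1 gene past the test. Its values were 8.51 at the lowest, 8.58 at the median and 8.70 at the highest in diabetic retinas, and 8.25, 8.43 and 8.46 in control retinas. The groups did not overlap, which held for no other synthetase, for 2.84% of all genes and 3.68% of the brighter ones, and for 1.22% of all genes in this direction, and the lowest control was replicate 5. The change was 0.18 ± 0.04 (SE, n = 6 per group; limma adjusted p = 0.0414), with all 6 diabetic retinas above the control mean. The call lay near the threshold: it did not pass when diabetic 1, 3, 4, 5 or 6 or control 1, 2, 3 or 6 was omitted, 9 of the 12 arrays (adjusted p from 0.0542 to 0.0775), while the change stayed between 0.15 and 0.19 in all 12 runs. In those 9 runs the calls over all genes also fell, to between 325 and 546, against 797 with all arrays. Tars was also not called with an intensity trend in the variance model (adjusted p = 0.0629) or with the crystallin mean as a covariate (adjusted p = 0.0696, change 0.18).

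Lars, the leucyl enzyme and, in mammals, a leucine sensor for the mTORC1 kinase, had the largest estimate of all 36 genes. It ran from 8.17 over 8.31 to 8.42 (lowest, median, highest) in diabetic retinas and from 7.86 over 8.08 to 8.25 in control retinas. All 6 diabetic retinas lay above the control mean, and 4 lay above every control. The change of 0.23 ± 0.06 missed the threshold (adjusted p = 0.0647). It passed without control 4, the highest control (0.26, adjusted p = 0.0364), and when the test was limited to genes at or above the 25th percentile of level (adjusted p = 0.0485).

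Hars, the cytosolic histidyl enzyme, ran from 8.55 over 8.59 to 8.64 in diabetic retinas and from 8.36 over 8.49 to 8.59 in control retinas. Its diabetic values were tightly grouped (SD 0.03, against 0.09 in controls), and 3 of them lay above every control. The change was 0.12 ± 0.04 (adjusted p = 0.105). Hars and Hars2 are neighbours on the mouse genome, and both had positive estimates. Whether the array tells these related genes apart was not tested.

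The estimates of Mars and Farsb ran the other way. Mars, the methionyl enzyme that also charges the initiator transfer RNA, ran from 8.68 over 8.72 to 8.81 in diabetic retinas and from 8.70 over 8.88 to 9.0 in control retinas. Its change was -0.12 ± 0.05 (adjusted p = 0.163), with all 6 diabetic retinas below the control mean but only 1 below every control. Farsb, the beta subunit of the phenylalanyl enzyme, ran from 7.95 over 8.08 to 8.12 in diabetic and from 8.05 over 8.13 to 8.21 in control retinas. Its change was -0.09 ± 0.04 (adjusted p = 0.182), whereas that of Farsa, the alpha subunit, was 0.00 ± 0.06 (adjusted p = 0.984).

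**Figure D2:**
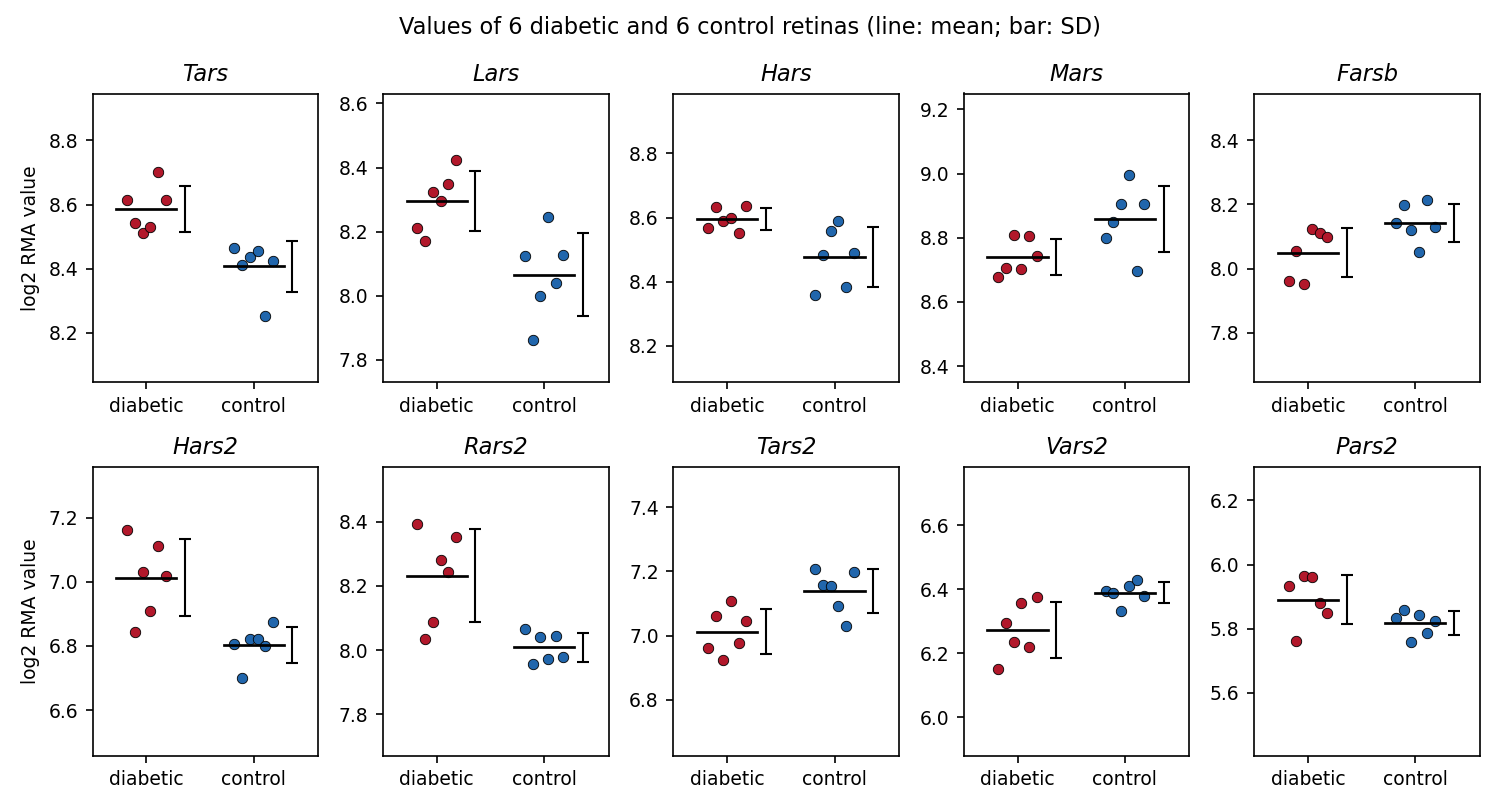
Log2 RMA values of each of the 6 diabetic (red, left) and 6 control (blue, right) retinas for the 5 cytosolic genes (top) and 5 mitochondrial genes (bottom) of smallest p, with the group mean as a line and the SD as a bar; every panel spans the same range on the log2 scale. The groups are apart for Tars, while the other 9 genes overlap between the groups.

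The other 15 cytosolic genes had changes between -0.09 and 0.10, 7 above 0 and 8 below, with adjusted p of 0.259 or more. Of the 8 cytosolic enzymes of the multi-synthetase complex, a grouping chosen after the values were seen, Lars, Eprs (0.10 ± 0.05), Iars (0.05 ± 0.03) and Rars (0.03 ± 0.03) were above 0. Mars, Dars (-0.08 ± 0.04), Kars (-0.06 ± 0.03) and Qars (-0.03 ± 0.08) were below it. The median of these 8 was 0.00, and 0 of them passed the limma test, against 3.24% of all genes. At an unadjusted p under 0.05 there were 2 (Lars and Mars), or 25%, against 21.0% of all genes and 27.7% of the brighter ones. Its 3 scaffold genes were also uncalled: Aimp1 had 0.07 ± 0.04 (adjusted p = 0.261), Aimp2 0.12 ± 0.04 (adjusted p = 0.134) and Eef1e1 -0.14 ± 0.06 (adjusted p = 0.256).

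Outside the complex, Aars, Gars, Hars and Yars are among the cytosolic enzymes in which human mutations cause Charcot-Marie-Tooth neuropathy. Aars had 0.00 ± 0.06 and Gars 0.01 ± 0.03. Yars, the tyrosyl enzyme, had -0.09 ± 0.07 (adjusted p = 0.502), with control values spread from 8.38 to 8.75. Vars, the valyl enzyme and the dimmest of the cytosolic group, had 0.08 ± 0.04 (adjusted p = 0.259). The seryl enzyme Sars (-0.06 ± 0.04), the asparaginyl enzyme Nars (-0.04 ± 0.04), the tryptophanyl and interferon-induced enzyme Wars (-0.04 ± 0.04) and the cysteinyl enzyme Cars (0.02 ± 0.06) completed the group. Of the 6 genes shown above with the element in capitals, Tars rose, Asns fell (described with the ATF4-linked genes), and Iars, Gars, Aars and Yars had estimates from -0.09 to 0.05.

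Among the mitochondrial enzymes, Hars2 was the 1 gene past the test. In humans it is a gene of inherited hearing loss with ovarian failure. Its values ran from 6.84 over 7.02 to 7.16 in diabetic retinas and from 6.70 over 6.81 to 6.87 in control retinas. The groups overlapped, because diabetic 2 lay below the highest control, and the other 5 diabetic retinas lay above every control. The change was 0.21 ± 0.05 (n = 6 per group; limma adjusted p = 0.0480), with all 6 diabetic retinas above the control mean. It did not pass when any of 11 of the 12 arrays was omitted (adjusted p from 0.0592 to 0.0917), and passed without diabetic 2 (change 0.24, adjusted p = 0.0199). Robust variance estimation (adjusted p = 0.0535), an intensity trend (adjusted p = 0.0511) and the crystallin covariate (adjusted p = 0.0539, change 0.23) also ended the call.

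Rars2, the mitochondrial arginyl enzyme, whose loss causes pontocerebellar hypoplasia in humans, ran from 8.03 over 8.26 to 8.39 in diabetic retinas and from 7.96 over 8.01 to 8.06 in control retinas. Diabetic 2 was again the low array of its group, and the other 5 lay above every control. The change of 0.22 ± 0.06 missed the threshold (adjusted p = 0.0578), and passed without diabetic 2 (0.26, adjusted p = 0.0219). Diabetic values were more spread than control values for this gene (SD 0.14, against 0.05 in controls), as they were for Hars2 (SD 0.12, against 0.06 in controls).

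Tars2 and Vars2 had the lowest mitochondrial estimates. Tars2, the mitochondrial threonyl enzyme, ran from 6.92 over 7.01 to 7.11 in diabetic retinas and from 7.03 over 7.16 to 7.21 in control retinas. The change was -0.13 ± 0.04 (adjusted p = 0.0865), with all 6 diabetic retinas below the control mean, and it passed without control 5, the lowest control (-0.15, adjusted p = 0.0453). Vars2, the mitochondrial valyl enzyme, ran from 6.15 over 6.27 to 6.38 in diabetic retinas and from 6.33 over 6.39 to 6.43 in control retinas. Its change was -0.12 ± 0.04 (adjusted p = 0.0948), with 4 diabetic retinas below every control. Pars2, the prolyl enzyme, ran from 5.76 over 5.91 to 5.96 in diabetic and from 5.76 over 5.83 to 5.86 in control retinas, a change of 0.07 ± 0.03 (adjusted p = 0.239).

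The other 11 mitochondrial genes had changes between -0.07 and 0.02, 3 above 0 and 8 below, with adjusted p of 0.295 or more. Ears2, which also places glutamate on the glutamine transfer RNA in mitochondria for later conversion, had -0.06 ± 0.03, and the enzymes that convert it were uncalled as well: Gatb had 0.00 ± 0.03, Gatc -0.17 ± 0.06 and Qrsl1 0.09 ± 0.05 (adjusted p from 0.145 to 0.959). Nars2 (-0.07 ± 0.04), Wars2 (-0.05 ± 0.06), Fars2 (-0.05 ± 0.06), Aars2 (-0.02 ± 0.03), Cars2 (-0.02 ± 0.05), Mars2 (-0.02 ± 0.05) and Lars2 (-0.02 ± 0.05) were below 0. Iars2 (0.02 ± 0.04), Yars2 (0.01 ± 0.07) and Sars2 (0.00 ± 0.04) were above it.

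Cytosolic and mitochondrial enzymes as groups had similar changes. The median change was 0.00 for the 20 cytosolic genes, 10 above 0 and 10 below, and -0.02 for the 16 mitochondrial genes, 6 above and 10 below. Each class held 1 gene past the test (5% of cytosolic and 6.25% of mitochondrial genes, against 3.24% of all genes). An unadjusted p under 0.05 was found for 5 of 20 cytosolic and 4 of 16 mitochondrial genes. This was 25% of each class, against 21.0% of all genes and 27.7% of the brighter ones. No test was made of the class difference, and the mean over cytosolic genes differed between diabetic and control retinas by 0.01, less than the SD between animals (0.03 in diabetic and 0.04 in control retinas). For the mitochondrial mean the difference was 0.00, with SDs of 0.02 in diabetic and 0.04 in control retinas.

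Single arrays differed in the mean over each class. Control 5 had the lowest cytosolic mean deviation (-0.08) and was the lowest control for 8 of the 20 cytosolic genes, among them Tars, Eprs, Qars, Sars and Aars. The highest cytosolic deviation was that of diabetic 6 (0.04), the array with the highest crystallin mean. Diabetic 2, with the next highest crystallin mean, had the lowest cytosolic deviation of the diabetic group (-0.02). A link between the 2 measures was not tested. Among mitochondrial genes, control 3 was lowest (-0.06) and was the lowest control for 7 of 16 genes, and control 4 was highest (0.05). In both classes the range of the controls held all but the highest diabetic value of the cytosolic mean.

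**Figure D3:**
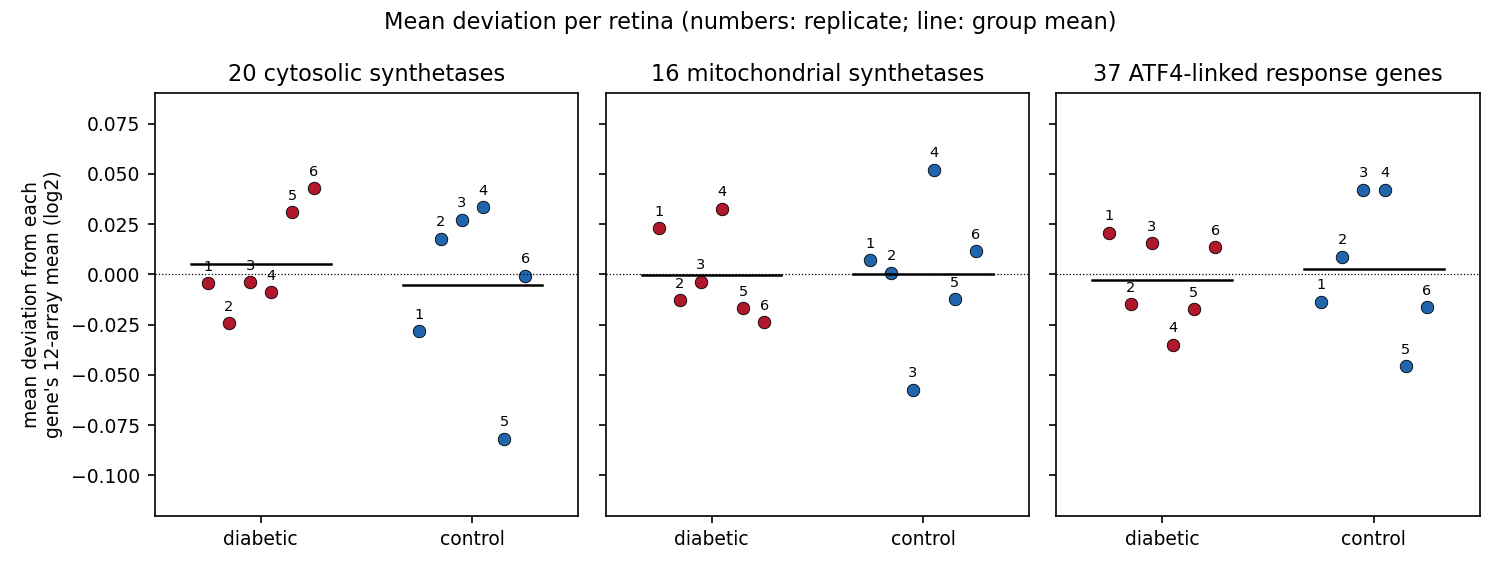
Mean deviation of the genes of a group from their 12-array means (log2, vertical axis) in each diabetic (red, left) and control (blue, right) retina, for cytosolic synthetases, mitochondrial synthetases and ATF4-linked response genes; numbers are replicates and lines are group means. Diabetic and control retinas overlap in all 3 panels, and control 5 is the lowest array of the cytosolic panel (-0.08).

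Pairs of cytosolic and mitochondrial enzymes for the same amino acid allowed the comparison within an amino acid. There were 15 such pairs, counting Farsa and Farsb each against Fars2 and leaving out Eprs. Of these pairs, 7 had estimates of opposite sign. Eprs (0.10), which serves glutamate and proline, was not paired with Ears2 (-0.06) or Pars2 (0.07). Threonine gave the largest difference, 0.30 between the change of Tars and that of Tars2. The log2 difference of Tars over Tars2 within an array ran from 1.42 to 1.72 in diabetic and from 1.22 to 1.36 in control retinas, without overlap, and this was the only pair of the 15 whose groups did not overlap. The share of other gene pairs without overlap was not computed. Tars alone already did not overlap, so the pair is not a separate result. Leucine (0.25) and valine (0.19) followed in the same direction, and arginine ran the other way (-0.19), since Rars2 and not Rars carried the larger estimate. Histidine was the 1 pair in which both members had an unadjusted p under 0.05 in the same direction. These differences were not tested.

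**Figure D4:**
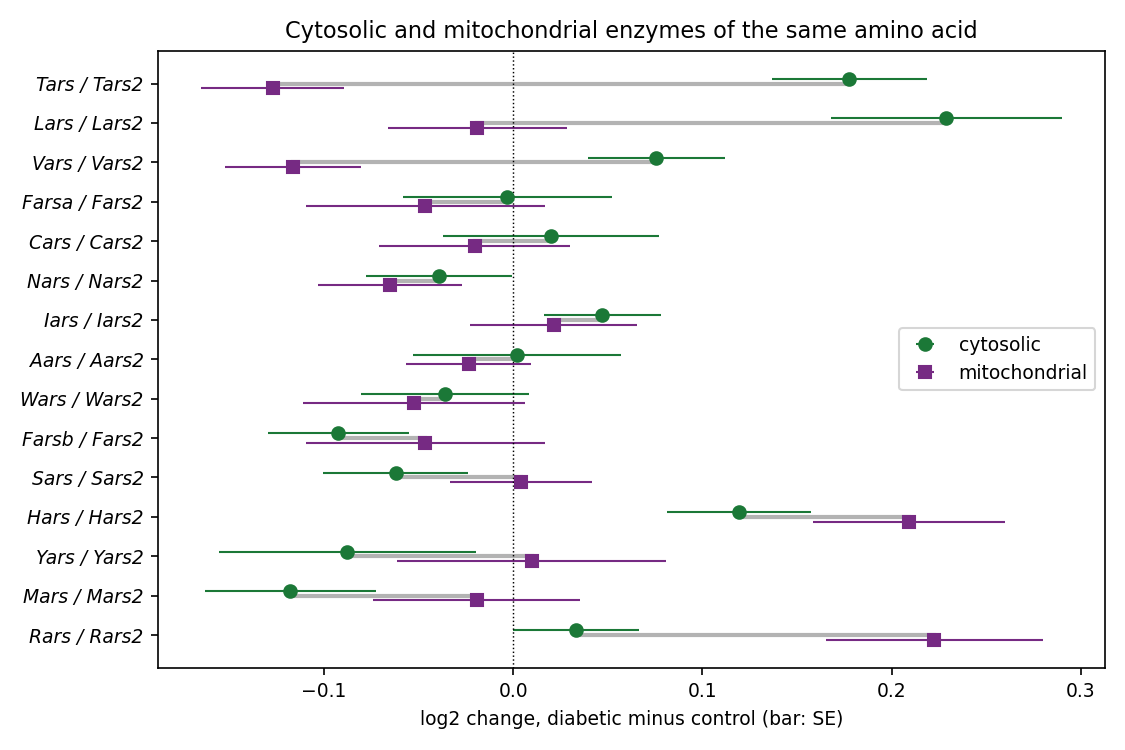
Log2 change (diabetic minus control, horizontal axis; bars are SE) of cytosolic (green circles) and mitochondrial (purple squares) enzymes, 1 row per pair for the same amino acid (Eprs left out), sorted by the cytosolic minus mitochondrial change. The widest gap upward is Tars against Tars2 (0.30) and the widest downward is Rars against Rars2 (-0.19).

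The ATF4-linked amino acid response genes had changes in both directions, and those past the test were lower in diabetic retinas. Of 38 listed genes 37 were measured, and 21 were above 0 and 16 below, with a median of 0.02, close to that of all genes (0.00). The limma test called 0 higher and 2 lower, 5.41% of the 37, against 3.24% of all genes (1.77% lower). At an unadjusted p under 0.05 there were 3 higher and 7 lower, 27.0% of the 37, against 21.0% of all genes (9.76% higher, 11.3% lower) and 27.7% of the brighter ones. The list as a whole was not tested. Asns, asparagine synthetase, ran from 8.44 over 8.62 to 8.64 in diabetic and from 8.72 over 8.86 to 9.10 in control retinas and fell by 0.29 ± 0.06 (adjusted p = 0.0334). It did not pass when 1 of 7 arrays, diabetic 1, 3, 4, 5 or 6 or control 1 or 3, was omitted (adjusted p from 0.0506 to 0.0668). Ppp1r15a, which recruits the phosphatase that reverses eIF2 phosphorylation, ran from 5.78 over 5.87 to 5.99 in diabetic and from 6.01 over 6.08 to 6.11 in control retinas. It fell by 0.19 ± 0.03 (adjusted p = 0.0148) and passed whichever single array was omitted. The groups did not overlap for Asns, Ppp1r15a and Gdf15, a stress cytokine near the floor of the array (-0.05 ± 0.02, adjusted p = 0.107), which held for 1.62% of all genes in this direction.

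Shmt2, the mitochondrial enzyme that converts serine to glycine, had -0.22 ± 0.06 (adjusted p = 0.0609), and Aldh18a1, an enzyme of proline synthesis, -0.14 ± 0.04 (adjusted p = 0.0812); both were named after their values were seen. Atf4 itself had -0.10 ± 0.06 (adjusted p = 0.417), from 9.36 over 9.46 to 9.63 in diabetic and from 9.45 over 9.52 to 9.77 in control retinas. The stress-induced targets Ddit3 (-0.02 ± 0.06, adjusted p = 0.858), Trib3 (0.03 ± 0.03, adjusted p = 0.708) and Chac1 (-0.04 ± 0.03, adjusted p = 0.40) and the serine synthesis gene Psat1 (0.08 ± 0.11, adjusted p = 0.696) did not pass. Of the 4 eIF2 kinases, the heme-regulated Eif2ak1 had 0.12 ± 0.05 (adjusted p = 0.162). The double-stranded RNA sensor Eif2ak2 had 0.01 ± 0.05, the endoplasmic reticulum stress sensor Eif2ak3 0.06 ± 0.04, and Eif2ak4, which senses uncharged transfer RNA, 0.03 ± 0.05 (adjusted p from 0.414 to 0.913). In the list of eIF2 kinases, eIF2, its exchange factor eIF2B and ATF4, 1 of 16 measured genes rose and 0 fell past the limma test. This was 6.25%, against 3.24% of all genes (1.47% higher, 1.77% lower) and 5.13% of the brighter ones. At an unadjusted p under 0.05 there were 4 of the 16, against 21.0% of all genes. The called gene, the eIF2B subunit gene Eif2b3, rose by 0.24 ± 0.06 (adjusted p = 0.0414). Its values ran from 7.64 over 7.74 to 7.84 in diabetic and from 7.38 over 7.46 to 7.66 in control retinas, and 4 diabetic retinas lay above every control. It did not pass when 1 of 10 arrays, any diabetic array or control 1, 2, 3 or 5, was omitted (adjusted p from 0.0548 to 0.0790).

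**Figure D5:**
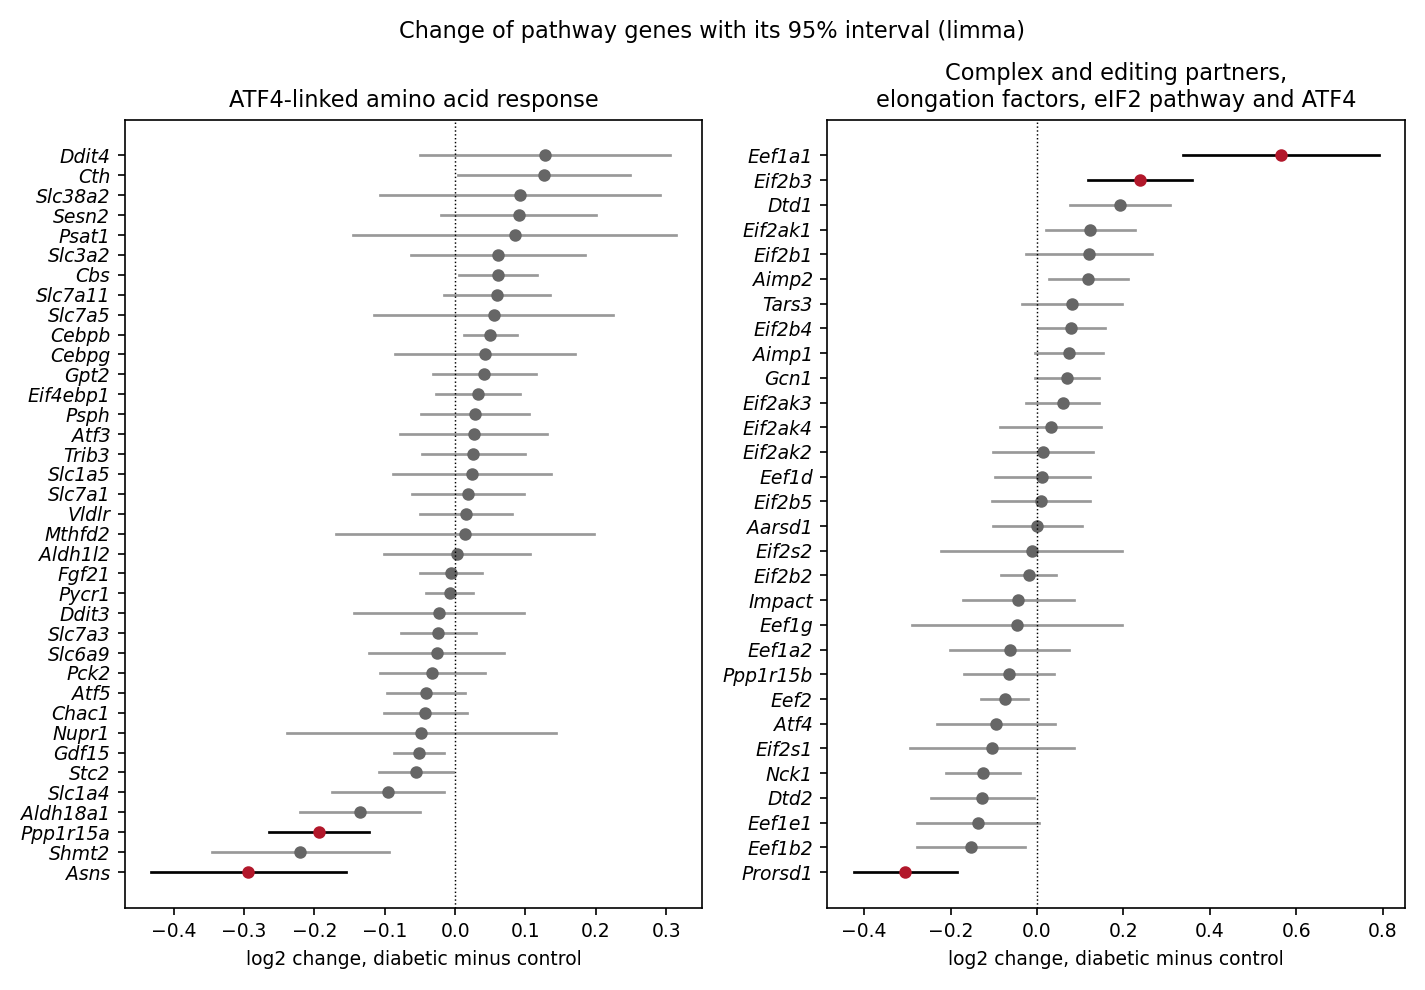
Log2 change (diabetic minus control, horizontal axis) with its 95% interval for the 37 measured ATF4-linked response genes (left) and for the partners of the synthetases, elongation factors and eIF2 pathway genes (right); red points with black bars have an adjusted p under 0.05. Asns (-0.29) and Ppp1r15a (-0.19) are the lower calls on the left, and Eef1a1, Eif2b3 and Prorsd1 are the calls on the right.

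A list of 8 genes held scaffold and editing partners, which hold the complex together or remove wrongly placed amino acids. It also held Tars3, a further threonyl enzyme (0.08 ± 0.05, adjusted p = 0.413). Of these 8 genes, 0 rose and 1 fell past the limma test, with 4 at an unadjusted p under 0.05, against 3.24% and 21.0% of all genes. Prorsd1, related to the editing domain of prolyl enzymes, ran from 6.66 over 6.72 to 6.82 in diabetic and from 6.89 over 6.99 to 7.26 in control retinas. It fell by 0.30 ± 0.05 (adjusted p = 0.0189), without overlap between the groups, and passed whichever single array was omitted. Dtd1, which clears D-amino acids from transfer RNA, had 0.19 ± 0.05 (adjusted p = 0.0711).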

How the data were processed

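Expression was measured with 1 array per retina sample in 6 diabetic and 6 control mice. The deposited table held log2 values made by the authors with RMA, per the submitters' processing notes; version and probe definition: not given in the sources used here. All arrays shared 1 distribution, so a shift of most genes would not be visible, and no signal over background was given. Of 24973 lines, 24015 were named by the platform annotation, 559 by the RefSeq table (GRCm38.p6, by gene number) and 399 not at all. For 4 symbols on several lines the brightest was kept, leaving 24570 genes.

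Changes were tested with limma 3.58.1 in R 4.3.3 (lmFit and eBayes, diabetic minus control, two-sided, Benjamini-Hochberg over all genes, threshold 0.05), after a check on simulated data. Lists were described by counts and medians, and no list was tested. Lowest, median and highest values were given for calls and for the 5 synthetases of smallest p in each class; other synthetases, Atf4 and its targets, eIF2 kinases and scaffold genes were named from the lists. Alternatives covered variance model, weights, filters, cyclic loess, table lines, replicate block, crystallin covariate and each array left out. Phgdh, Eif2s3x and Hba-a1 of the lists were not analysed here. The members and lists were chosen with earlier results of these data known.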

Additional observations from a re-analysis of the deposited data

Results flagged for a closer look

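For 120 sets of 6 arrays covering the synthetases and the genes and list means beside them, the distance of the extreme array to its nearest neighbour was divided by the range of the set. In 9 sets (7.5%) this ratio passed the 95% limit for 6 values, where chance gives about 1 in 20. Of these, 4 were low values of control 5 in cytosolic synthetases: Tars (ratio 0.752, at 8.25), Sars (0.739, at 10.30), Qars (0.732, at 8.20) and Eprs (0.673, at 9.26). Diabetic 3 was high for both alanyl enzymes, Aars (0.702, at 9.11) and Aars2 (0.626, at 6.65). Yars2 was low in diabetic 6 (0.686, at 6.56). Of the pathway genes, Asns was low in diabetic 2 (0.634, at 8.44) and Psat1 high in diabetic 1 (0.787, at 6.61).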

How the results depend on the processing

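The count of 2 synthetases past the limma test was 0 with an intensity trend, 0 with the crystallin covariate, 1 with robust estimation and 4 (adding Lars and Rars2) when only genes at or above the 25th percentile or the median of level were tested, where fewer genes are adjusted for. With the replicate number as a block it was 0 (506 over all genes, against 797; Tars adjusted p = 0.119, Hars2 0.0503), and the block also ended the calls of Asns (adjusted p = 0.104), Ppp1r15a (0.0521) and Eif2b3 (0.0898); the labels do not say that the numbers pair animals, and same-numbered arrays correlated at -0.16 to 0.17 in their deviations from the group means. Without 1 array the count ran from 0 to 3, and that over all genes from 325 to 835; with the crystallin covariate the count over all genes was 469. In the runs with 0, between 8 and 12 synthetases had an unadjusted p under 0.05. Array weights gave 3, and cyclic loess and all table lines gave 2. The crystallin covariate also ended the calls of Asns (0.0570) and Eif2b3 (0.0717), and array weights that of Eif2b3 (0.0563). The cause was not tested. Of the 36 genes, 26 kept their sign under all 21 alternatives. The intensity trend, robust estimation, level filters, all table lines and the block do not alter an estimate, so no sign could turn under them. Signs turned for Aars (-0.020) and Farsa (0.0024) with array weights, Farsa (0.0052) with cyclic loess, and Iars2 (-0.0024) and Sars2 (-0.00082) with the crystallin covariate. Without 1 array they turned for the synthetases Aars (-0.041 to 0.028), Cars (-0.0035 to 0.061), Cars2 (-0.039 to 0.0023), Farsa (-0.040 to 0.032), Gars (-0.0043 to 0.032), Iars2 (-0.011 to 0.039), Lars2 (-0.047 to 0.0079), Mars2 (-0.053 to 0.0057), Sars2 (-0.016 to 0.026) and Yars2 (-0.025 to 0.064). Of the pathway genes named, Ddit3 (-0.066 to 0.0027) and Eif2ak2 (-0.015 to 0.050) also turned. The cytosolic median ran from -0.012 to 0.0076 over the alternatives and the mitochondrial median from -0.035 to -0.0016. These moves were smaller than the SD between animals (0.036 and 0.030), a wide limit for medians this close to that of all genes. Alternatives that do not alter an estimate could not move them.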

Other observations

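The genes that carry charged transfer RNA to the ribosome or serve mitochondrial translation were examined beside the synthetases. Of 6 elongation factor genes, 3 had an unadjusted p under 0.05, against 21.0% of all genes. Past the adjusted threshold 1 rose and 0 fell, against 3.24% of all genes. The called gene, Eef1a1, delivers charged transfer RNA and has many pseudogene copies that the array may not separate. Its mean level was 6.44, against 10.32 for Eef1a2 and 12.07 for Eef2, and what its probes measure was not tested. Eef1a1 differed by 0.56 ± 0.10 (limma adjusted p = 0.0196). Its values ran from 6.42 over 6.73 to 6.99 in diabetic and from 5.94 over 6.10 to 6.48 in control retinas. Its neuronal and muscle counterpart Eef1a2 had -0.06 ± 0.06 (adjusted p = 0.613), and Eef1b2, part of its exchange factor, -0.15 ± 0.06 (adjusted p = 0.158). Eef2, which moves the ribosome along, had -0.07 ± 0.03 (adjusted p = 0.119).

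Of 13 mitochondrial translation partners, 0 passed the limma test, against 3.24% of all genes, and 3 (23.1%) had an unadjusted p under 0.05, against 21.0% of all genes. Their median change was 0.01. Tufm, the mitochondrial counterpart of Eef1a1, had -0.21 ± 0.05 (adjusted p = 0.0580), and Gfm1, a mitochondrial elongation factor, had 0.11 ± 0.04 (adjusted p = 0.171).

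By the fold of the catalytic domain, a grouping chosen after the values were seen, both called synthetases (Tars and Hars2) belong to class II, 2 of 17 genes, against 0 of 18 class I genes and 3.24% of all genes (Eprs, which holds both folds, apart). At an unadjusted p under 0.05 there were 5 of 17 class II genes and 4 of 18 class I genes, against 21.0% of all genes. This difference was not tested.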
